A study of Mus musculus with 20 samples.

Results

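The 9 genes described here encode the mouse proteins that write, keep and remove methyl groups on cytosine: Dnmt1, Dnmt3a, Dnmt3b, Dnmt3l, Uhrf1, Tet1, Tet2, Tet3 and Tdg. They were taken by symbol, and all 9 were found among the 22102 entries of the time course table and the 42458 entries of the cell line table. RNA was sequenced in 20 libraries, 12 from a differentiation time course and 8 from a survey of cell lines. All time course libraries came from E14, a 129/Ola mouse embryonic stem cell line, whose cells carried a lentiviral pLKO.1 hairpin and were selected with puromycin. The culture with hairpin A against Braveheart, the culture with hairpin B against Braveheart and the culture with a scrambled hairpin each gave 1 library at days 0, 3, 6 and 9 of differentiation towards heart muscle. Braveheart is a long noncoding RNA named in the study's title as needed for cardiac lineage commitment, and its own level was not analysed here. The extent of its depletion in the hairpin cultures was therefore not checked, and the hairpin comparisons below describe cultures by their hairpins. The labels describe both an embryoid body and a directed cardiomyocyte protocol, and do not tie a library to either.

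The cell line set held 1 library of a fully reprogrammed line (miPS, MCV8.1), 4 libraries of mouse embryonic stem cells (mESC, 2 each of lines E14 and v6.5), 2 libraries of partially reprogrammed lines (11.3/MCV6 and 11.5/MCV8, called partial 1 and partial 2) and 1 library of embryonic fibroblasts (MEF). The MEF library is labelled as the cells used for reprogramming to MCV6, MCV8 and MCV8.1. The reprogrammed lines were 129/svJae x C57BL/6 fibroblasts with an Oct4-GFP reporter that received retroviral Oct4, Sox2, c-myc and Klf4, and each is a single derived line. The mESC and miPS cells grew on irradiated fibroblast feeders that were removed by pre-plating, and the partial lines grew without feeders. Nothing in the labels says that replicates came from separate cultures, so the p-values measure the spread between these libraries, which may be technical. The hairpin and scrambled cultures descend from 1 stem cell line.

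In mammals, Dnmt3a and Dnmt3b place new methyl groups on CpG dinucleotides, and Dnmt3l, which has no catalytic activity of its own, binds and stimulates them. Dnmt1 copies methylation onto the new strand after DNA replication, and Uhrf1 recruits it to hemimethylated sites. Tet1, Tet2 and Tet3 oxidize 5-methylcytosine, and Tdg excises the oxidized products so that base excision repair can restore an unmethylated cytosine. Embryonic stem cells are known for high Tet1, Tet2 and Dnmt3l, and the early epiblast for high Dnmt3b.

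The labelled cell types were set against marker genes. The summed pluripotency markers were 2754, 2563 and 2553 FPKM (fragments per kilobase, scaled to library depth) at day 0 in the hairpin A, hairpin B and scrambled cultures. The hairpin B culture stood apart late in the course: these markers summed to 2541 FPKM at day 9 in hairpin B, 439 FPKM in hairpin A and 380 FPKM in scrambled. At day 9, 23.4% of the genes tested were at least 2-fold from scrambled in hairpin B and 1.64% in hairpin A. Results on the days are therefore also given without the hairpin B libraries of days 6 and 9, a choice made after seeing the data. In the partial lines Pou5f1, present as a transgene, was at 6491 and 6911 TPM (a transcript's share of all transcripts, scaled to a fixed total), while Nanog was at 0.951 and 1.67 TPM and Zfp42 at 1.59 and 0.971 TPM. These are only some of the 7 pluripotency markers. All 7 summed to 7475 and 7172 TPM in the partial lines, 2655 to 3281 TPM in mESC and 3717 TPM in miPS. Pou5f1 made up most of these sums in the partial lines, so the sums do not show the level of the other markers there. The fibroblast markers summed to at most 735 TPM in the miPS, mESC and partial libraries and to 20898 TPM in MEF. Pairs of libraries correlated over genes at 0.989 for the E14 replicates, 0.880 for the v6.5 replicates and 0.951 for the 2 partial lines, which are different lines.

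The letters at the start of a gene are shown for 4 members with different courses over the days, because CpG dinucleotides are the substrate of these enzymes. Each line gives 250 bases before and 50 after a RefSeq gene start on GRCm38.p6, 5′ to 3′ on the gene's own strand, with every CpG in capitals.

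Dnmt3b (chr2:153649199-153649498, plus strand): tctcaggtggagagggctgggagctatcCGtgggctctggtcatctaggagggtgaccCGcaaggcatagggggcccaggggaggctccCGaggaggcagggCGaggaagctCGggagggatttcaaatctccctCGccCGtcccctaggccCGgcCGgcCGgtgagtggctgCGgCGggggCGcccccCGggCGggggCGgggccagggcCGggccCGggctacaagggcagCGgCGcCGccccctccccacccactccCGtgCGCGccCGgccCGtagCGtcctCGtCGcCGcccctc

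Dnmt3l (chr10:78042037-78042336, plus strand): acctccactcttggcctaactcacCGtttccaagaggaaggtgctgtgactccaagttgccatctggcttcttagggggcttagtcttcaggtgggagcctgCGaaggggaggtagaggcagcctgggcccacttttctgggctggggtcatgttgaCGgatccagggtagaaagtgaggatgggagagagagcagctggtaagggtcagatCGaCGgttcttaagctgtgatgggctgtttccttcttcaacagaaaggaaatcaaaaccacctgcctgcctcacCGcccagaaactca

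Tet1 (chr10:62887275-62887574, minus strand): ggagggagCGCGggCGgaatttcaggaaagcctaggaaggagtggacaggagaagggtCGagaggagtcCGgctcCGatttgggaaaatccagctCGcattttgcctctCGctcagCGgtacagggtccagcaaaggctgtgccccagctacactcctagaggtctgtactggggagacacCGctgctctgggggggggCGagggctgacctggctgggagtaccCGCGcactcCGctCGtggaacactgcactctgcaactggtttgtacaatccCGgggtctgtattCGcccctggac

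Tet3 (chr6:83441629-83441928, minus strand): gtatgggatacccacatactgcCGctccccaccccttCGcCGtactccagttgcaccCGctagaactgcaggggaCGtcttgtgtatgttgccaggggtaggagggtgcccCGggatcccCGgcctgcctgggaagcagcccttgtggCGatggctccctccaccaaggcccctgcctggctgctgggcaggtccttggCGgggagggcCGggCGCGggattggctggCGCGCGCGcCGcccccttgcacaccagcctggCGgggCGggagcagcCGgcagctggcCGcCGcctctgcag

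The Dnmt3b window held 30 CpGs, the Tet3 window 22, the Tet1 window 17 and the Dnmt3l window 6. Over all 32851 such windows of RefSeq genes the median was 7 CpGs, with quartiles of 3 and 20. The other RefSeq starts of Dnmt3l held 4 and 3 CpGs, and the only Tet2 window held 57, more than 99.8% of all windows. Tdg had 26 CpGs, Uhrf1 had 12 and 33 at its listed starts, Dnmt3a had 46, 47 and 18, and Dnmt1 had 2, 12 and 33. No methylation was measured in these libraries, so these counts describe the sequence alone. The expression values were made on mm9, a different build, where the deposited locus of Dnmt3b is chr2:153475189-153513466, of Dnmt3l chr10:77505031-77526360, of Tet1 chr10:62267318-62342762 and of Tet3 chr6:83312369-83391672.

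Dnmt3b, the de novo methyltransferase of the early epiblast, peaked at day 3 in every culture. At day 0 it was at 74.3 FPKM in hairpin A, 69.0 in hairpin B and 116 in scrambled. At day 3 it was at 297 FPKM in hairpin A, 358 in hairpin B and 448 in scrambled, so that no day 3 library overlapped with day 0. By day 6 the levels were 193, 121 and 182 FPKM, and by day 9 they were 34.9, 54.4 and 30.5 FPKM, in the same order of cultures. Every day 9 library was below every day 0 library. Averaged over the 3 cultures, Dnmt3b was at 86.3 ± 25.5, 368 ± 76.2, 166 ± 39.0 and 39.9 ± 12.7 FPKM at days 0, 3, 6 and 9 (SD, n = 3 each).

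In the day 3 against day 0 comparison, Dnmt3b rose by 2.10 ± 0.27 on the log2(FPKM + 1) scale (SE, limma, adjusted p = 0.00313). Together with Tet2 it made 2 of 9 members past the adjusted threshold of 0.05 (5 at an unadjusted p under 0.05), where 6.04% of the 14108 genes tested passed (23.6% unadjusted). The scrambled day 3 value was the only one of the 108 member values that carried the authors' failed quantification status, and without that library the difference was 1.99 with an adjusted p of 0.0267. From day 3 to day 6 Dnmt3b fell by 1.16 ± 0.27 (adjusted p = 0.0414, limma), the only member called of 9, where 5.76% of genes passed. Without the scrambled day 3 library that difference was -1.05 and missed the threshold (adjusted p = 0.209, limma), as it did in 9 of the 12 fits that left out 1 library. At day 9 against day 6 no member passed with limma (2 of 9 at an unadjusted p under 0.05), where 0.0425% of genes did (14.1% unadjusted). The Dnmt3b difference there was -2.04 ± 0.27 (adjusted p = 0.0551), and 0.0405 with culture as a block.

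The 4 formative epiblast markers summed to 78.6, 84.0 and 106 FPKM at day 0 in hairpin A, hairpin B and scrambled, to 200, 237 and 265 FPKM at day 3, to 246, 129 and 213 FPKM at day 6 and to 171, 70.3 and 172 FPKM at day 9. They were above day 0 at day 3 in every culture, as Dnmt3b was, but the hairpin A sum was highest at day 6. At day 9 the sums of hairpin A and scrambled were above their day 0 sums, whereas Dnmt3b at day 9 was below its day 0 level in every culture. The part of the marked cells in the Dnmt3b result was not tested. Fewer cells of a type and less RNA per cell cannot be told apart in bulk libraries such as these. The 3 genes whose profiles over the 12 libraries were most like that of Dnmt3b were Lrrc16a, Snrpn and Mapk8ip2, with Pearson r between 0.979 and 0.973. Such correlations describe libraries that share cultures and days, and carry no test.

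**Figure D1:**
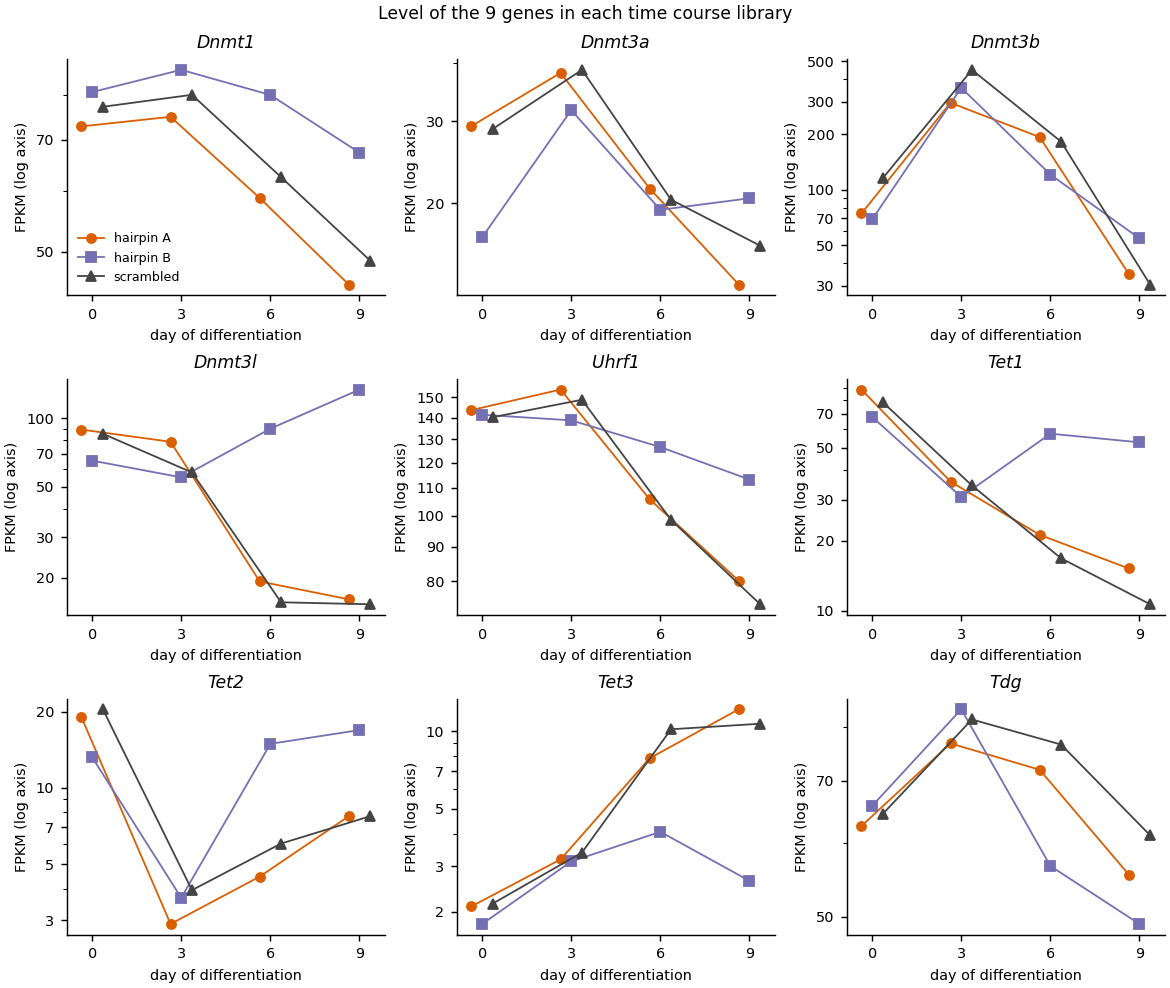
Level in FPKM (log axis) of each of the 9 genes against day of differentiation, with 1 point per library and a line per culture (hairpin A orange circles, hairpin B purple squares, scrambled grey triangles; points are offset sideways for legibility). Dnmt3b peaks at day 3 in all 3 cultures, while the hairpin B culture leaves the other two at days 6 and 9 for Dnmt3l, Tet1, Tet2 and Tet3.

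Dnmt3a, the other catalytic de novo enzyme (mm9 chr12:3806979-3914443), also had its highest level at day 3 in every culture, at lower levels and with smaller steps. It was at 29.3 FPKM in hairpin A, 16.9 in hairpin B and 28.9 in scrambled at day 0, and at 38.1, 31.7 and 38.6 FPKM at day 3. At day 6 it was at 21.5, 19.3 and 20.3 FPKM, below all day 3 libraries, and at day 9 at 13.4, 20.5 and 16.2 FPKM. The day 9 level was above that of day 0 in hairpin B and below it in hairpin A and scrambled. The day 3 against day 0 difference of 0.55 ± 0.22 did not pass (adjusted p = 0.161, limma), although the libraries of the 2 days did not overlap. The day 6 against day 3 difference was -0.79 with an adjusted p of 0.0635, which became 0.0478 with culture as a block. Its closest profiles were those of Sncb, Cacna1b and Bms1, with r from 0.975 to 0.959 over 12 libraries.

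Dnmt3l, the cofactor that lacks catalytic activity, split the cultures. It was at 89.2 FPKM in hairpin A, 65.2 in hairpin B and 85.5 in scrambled at day 0, and at 78.9, 55.1 and 57.9 FPKM at day 3. At day 6 it was at 19.2 FPKM in hairpin A, 90.0 in hairpin B and 15.6 in scrambled, and at day 9 at 16.1, 134 and 15.3 FPKM. The hairpin B culture thus held its highest Dnmt3l level at day 9, when hairpin A and scrambled were at their lowest. With all 12 libraries no day comparison of Dnmt3l passed (day 9 against day 0: -1.26, adjusted p = 0.235, limma). Without the hairpin B libraries of days 6 and 9, Dnmt3l fell at day 6 against day 3 (-1.79, adjusted p = 0.000445) and at day 9 against day 0 (-2.25, adjusted p = 4.67e-05).

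Tet1, the most abundant Tet dioxygenase of stem cells, showed the same split. Its day 0 levels were 88.9 FPKM in hairpin A, 67.8 in hairpin B and 78.4 in scrambled, and its day 3 levels were 35.8, 30.8 and 34.5 FPKM, with no overlap between the days. At day 6 it was at 21.2 FPKM in hairpin A, 57.5 in hairpin B and 16.8 in scrambled, and at day 9 at 15.2, 52.8 and 10.7 FPKM. All day 9 libraries were below all day 0 libraries, and hairpin B was the highest at both late days. Tet1 fell by 1.87 ± 0.51 at day 9 against day 0 (adjusted p = 0.0404, limma), and the difference was -2.50 without the 2 hairpin B libraries (adjusted p = 1.72e-05). Its day 3 against day 0 difference of -1.19 ± 0.51 did not pass with all libraries (adjusted p = 0.193), and passed without those 2 (-1.19, adjusted p = 0.00141). Those 2 libraries belong to neither day and enter that value through the estimate of the spread.

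Tet2, the second Tet enzyme of stem cells, was lowest at day 3 in every culture. It was at 19.0 FPKM in hairpin A, 13.2 in hairpin B and 20.4 in scrambled at day 0, and at 2.90, 3.68 and 3.95 FPKM at day 3, far below the day 0 range. At day 6 it was at 4.46, 14.9 and 6.03 FPKM and at day 9 at 7.73, 16.9 and 7.73 FPKM, with hairpin B highest on both days. Tet2 fell by 2.02 ± 0.41 at day 3 against day 0 (adjusted p = 0.0245, limma), the other member called beside Dnmt3b. That call was lost in 5 of the 12 fits that left out 1 library, with an adjusted p of up to 0.135. The day 9 against day 0 difference was -0.72 (adjusted p = 0.207), and -1.10 without the hairpin B libraries (adjusted p = 0.000974). Its profile over the libraries was closest to Cdc5l, Zfp59 and Necap1 (r from 0.963 to 0.960).

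Tet3, the Tet enzyme best known from the oocyte and from differentiated tissues, ran the other way. It was at 2.10 FPKM in hairpin A, 1.79 in hairpin B and 2.15 in scrambled at day 0, and at 3.19, 3.13 and 3.39 FPKM at day 3. At day 6 it was at 7.86, 4.08 and 10.2 FPKM, and at day 9 at 12.2 FPKM in hairpin A, 2.64 in hairpin B and 10.7 in scrambled. Every later library was above every day 0 library, and hairpin B was the lowest at days 6 and 9. Tet3 rose by 1.45 ± 0.42 at day 9 against day 0 (adjusted p = 0.0463, limma), a call lost in 10 of the 12 fits that left out 1 library (highest adjusted p 0.195). Without the 2 hairpin B libraries the rise was 2.03 (adjusted p = 1.77e-05). These levels lie above the level of 3 reads on a gene of 1 kb, estimated at 0.235 to 0.380 FPKM.

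The makeup of the Tet family, taken as shares of the summed FPKM, shifted accordingly. At day 0, Tet1 made up 80.8% of the Tet sum in hairpin A, 81.9% in hairpin B and 77.6% in scrambled, and Tet3 1.91%, 2.17% and 2.13%. At day 9, Tet1 made up 43.3% in hairpin A, 73.0% in hairpin B and 36.7% in scrambled, and Tet3 34.7%, 3.64% and 36.8%. The ratio of Tet1 to Tet3 was 42.4, 37.8 and 36.4 at day 0, and 1.25, 20.03 and 0.998 at day 9. In hairpin A and scrambled the 2 enzymes ended near equal levels, and in hairpin B they did not. Within the Dnmt3 sum, Dnmt3b made up 71.7%, 80.5% and 82.3% at day 3 in hairpin A, hairpin B and scrambled. At day 9 the Dnmt3l share was 25.0% in hairpin A, 64.1% in hairpin B and 24.6% in scrambled.

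**Figure D2:**
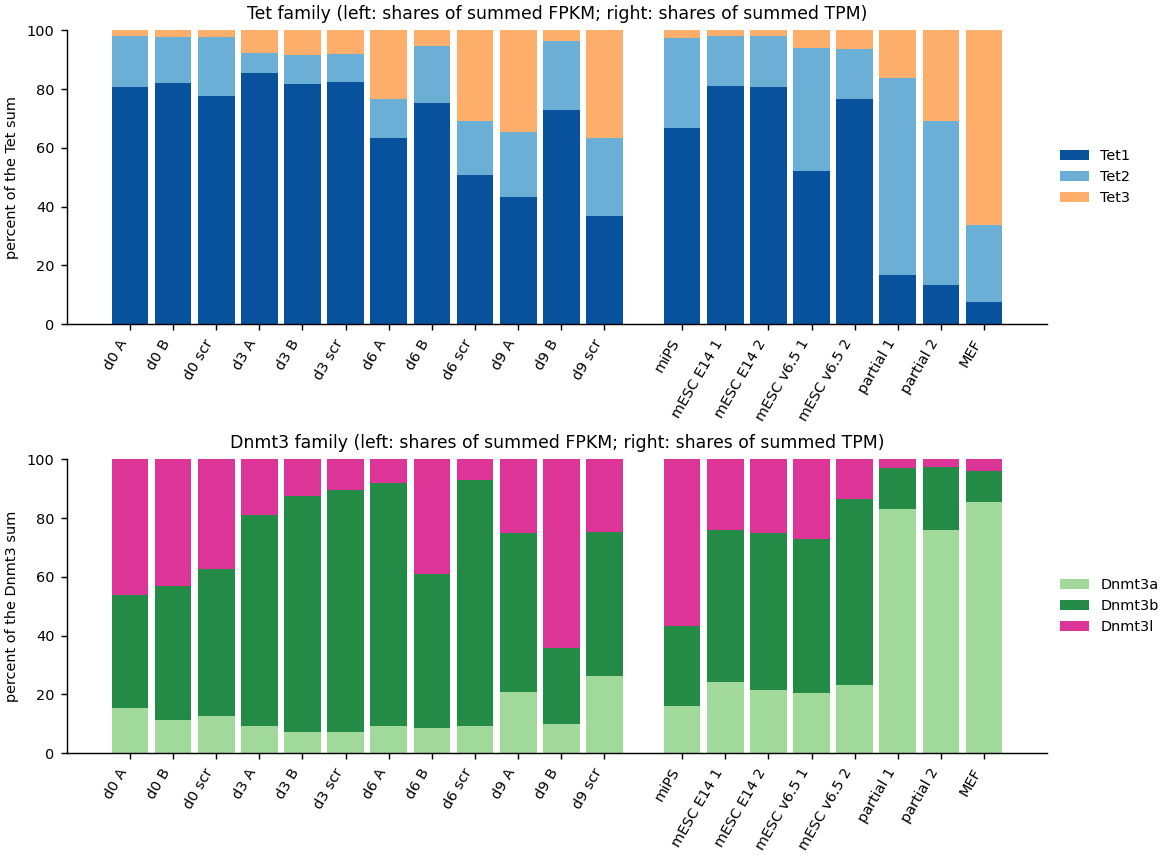
Percent of the summed level of the Tet genes (top) and of the Dnmt3 genes (bottom) held by each gene, with 1 bar per library: time course libraries by day on the left (d0 to d9; A, B and scr for hairpin A, hairpin B and scrambled; shares of FPKM) and cell lines on the right (shares of TPM). Tet3 takes 34.7% and 36.8% of the Tet sum at day 9 in hairpin A and scrambled and 3.64% in hairpin B, and 66.2% in MEF.

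Dnmt1, the maintenance methyltransferase (mm9 chr9:20711652-20757317), and Uhrf1, its recruiter (mm9 chr17:56442759-56462909), were near constant up to day 3 and lower at day 9. Dnmt1 was at 72.9, 80.8 and 77.3 FPKM at day 0 in hairpin A, hairpin B and scrambled, at 74.98, 86.3 and 80.1 FPKM at day 3, at 58.8, 80.1 and 62.6 FPKM at day 6 and at 45.3, 67.3 and 48.7 FPKM at day 9. Uhrf1 was at 144, 141 and 140.2 FPKM at day 0, at 154, 139 and 149 FPKM at day 3, at 106, 127 and 98.6 FPKM at day 6 and at 80.1, 113 and 73.9 FPKM at day 9. For both genes all day 9 libraries were below all day 0 libraries, with hairpin B the highest. Uhrf1 fell by 0.69 ± 0.15 at day 9 against day 0 (adjusted p = 0.0228, limma). The Dnmt1 difference was -0.53 ± 0.16 (adjusted p = 0.0520), and 0.0143 with culture as a block. The 2 genes were the most alike pair of members, with r = 0.930 over the 12 libraries. Of all genes Drosha, Kctd3 and Usp10 had the profiles most like Dnmt1 (r from 0.982 to 0.976), and Gm13498, Tmem63a and Sema4d those most like Uhrf1 (r from 0.993 to 0.988). The ratio of Uhrf1 to Dnmt1 was between 1.52 and 2.05 in all 12 libraries.

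Tdg, the glycosylase that acts after the Tet enzymes (mm9 chr10:82092582-82113239), had the narrowest range of the members over the days. It was at 62.6, 65.7 and 64.5 FPKM at day 0 in hairpin A, hairpin B and scrambled, at 76.7, 83.5 and 81.4 FPKM at day 3, at 71.9, 56.7 and 76.5 FPKM at day 6 and at 55.5, 49.1 and 61.1 FPKM at day 9. Day 3 libraries lay above those of day 0, and day 9 libraries below. The differences were 0.32 ± 0.12 at day 3 (adjusted p = 0.131, limma) and -0.22 at day 9 (adjusted p = 0.175) against day 0. Without the hairpin B libraries of days 6 and 9 the day 3 difference passed (0.32, adjusted p = 0.0143). Nt5dc2, Moxd1 and Pdlim3 had the profiles most like Tdg, with r from 0.968 to 0.953.

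At day 9 against day 0, 4 of 9 members passed (Tet3 higher, Dnmt3b, Uhrf1 and Tet1 lower), where 16.6% of all genes did. Dnmt3b there fell by 1.10 ± 0.27 (adjusted p = 0.0343, limma). The median difference was -0.69 over the 9 members and 0.10 over all genes. Without a filter on low values the Tet1 and Tet3 calls were lost (adjusted p = 0.0593 and 0.0682, limma), and with quantile normalization that of Tet3 (0.0539). In fits that left out 1 of the 12 libraries, the Dnmt3b and Tet1 calls were lost in 9 and the Uhrf1 call in 4. Without the hairpin B libraries of days 6 and 9, 5, 7, 4 and 8 members passed at day 3 against 0, day 6 against 3, day 9 against 6 and day 9 against 0, where 27.2%, 41.3%, 16% and 60.1% of genes passed. Leaving out the hairpin B day 9 library alone gave 8 members at day 9 against day 0, where 53.3% of genes passed. Leaving out any 1 of 4 libraries (scrambled day 0, scrambled day 9, hairpin A day 0 or hairpin A day 9) gave 0 there, where 0.614% to 1.41% of genes passed, and leaving out any 1 of the scrambled libraries of days 3 and 6 or the hairpin A or B library of day 3 gave 1, where 5.72% to 7.36% did. At day 3 against day 0, the count was 1 without either day 0 or day 3 library of scrambled or hairpin A, and without the day 3 library of hairpin B, where 1.19% to 2.02% of genes passed.

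**Figure D3:**
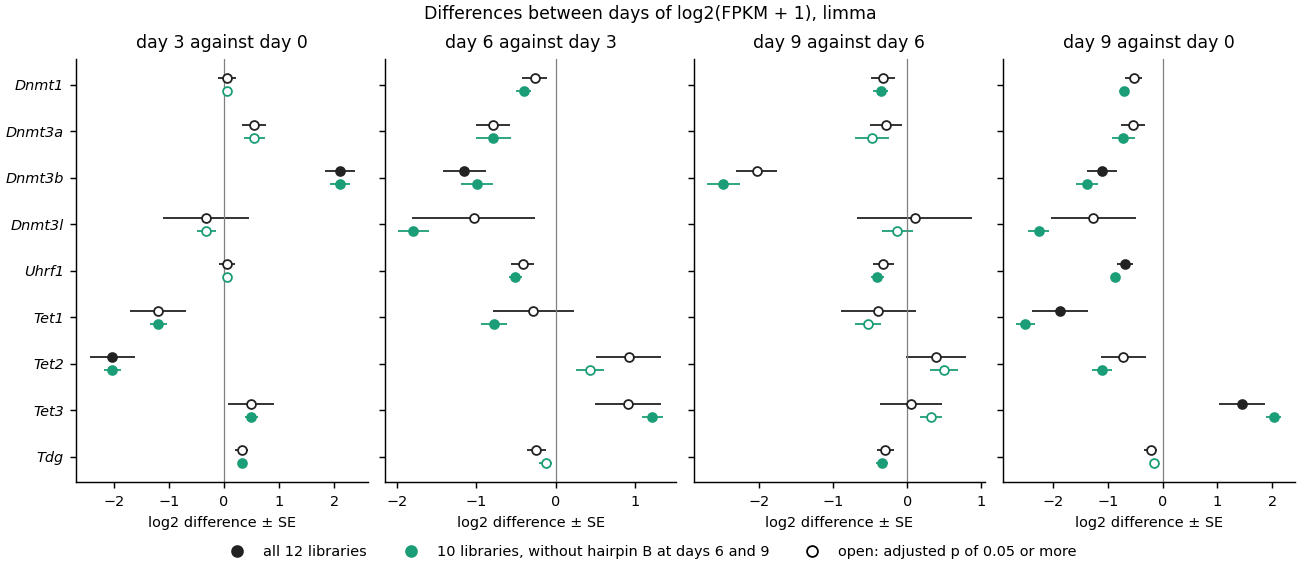
Difference in log2(FPKM + 1) between days with its standard error for each gene, from all 12 libraries (black) and from the 10 libraries without hairpin B at days 6 and 9 (green); filled points passed an adjusted p of 0.05 in limma. The day 3 against day 0 differences (2.10 for Dnmt3b) are the same in both sets by design. The 2 omitted libraries belong to neither day and change only the standard errors there. The Dnmt3l difference at day 9 against day 0 is -1.26 with all libraries and -2.25 without the 2.

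The comparison of the Braveheart hairpins with the scrambled hairpin asked whether these genes differ when Braveheart is targeted. With limma 0 of 9 members passed at day 0, 3, 6 or 9, where 0.0213%, 0.0284%, 0.0425% and 0.0354% of genes passed. At an unadjusted p under 0.05 the count was again 0 of 9 on each day, where 0.468%, 0.262%, 1.05% and 1.41% of genes passed. The effect averaged over the 4 days and the change of the effect between day 0 and day 9 gave 0 of 9 as well, where 0.0638% and 0.0496% of genes passed, and 0 of 9 unadjusted, where 1.22% and 1.11% did. The fit had 4 residual degrees of freedom, and at each day the lone scrambled library was assumed to vary as the pairs of hairpin libraries do. The spread was pooled over those pairs at all 4 days, so the late split between hairpins A and B also entered the tests at days 0 and 3. For Dnmt3l the SE was 1.28 at every day. A difference in these genes was not detectable with this design, which does not show that there was none.

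At days 0 and 3 no member was as much as 2-fold from scrambled in either hairpin, and at days 6 and 9 members were so in hairpin B and not in hairpin A. Of all genes, 1.06%, 1.39%, 1.68% and 1.64% were so in hairpin A at days 0, 3, 6 and 9. In hairpin B 3.38% and 0.964% were so at days 0 and 3. With shares this low, finding no such member among 9 is not a result about the members. Hairpin A minus scrambled ran from -0.63 to 0.18 over the 9 members at day 0, from -0.59 to 0.44 at day 3, from -0.36 to 0.32 at day 6 and from -0.26 to 0.47 at day 9. Hairpin B minus scrambled ran from -0.74 to 0.06 at day 0 and from -0.32 to 0.11 at day 3, but from -1.14 to 2.46 at day 6 and from -1.68 to 3.05 at day 9. No member was at least 2-fold from scrambled in the same direction in both hairpins on any day, where 0.149%, 0.135%, 0.354% and 0.191% of genes were higher in both, and 0.241%, 0.269%, 0.68% and 0.659% lower, at days 0, 3, 6 and 9. In hairpin B alone 4 of 9 members were at least 2-fold from scrambled at days 6 and 9, where 11.1% and 23.4% of genes were.

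Those 4 were Dnmt3l, Tet1 and Tet2 above scrambled and Tet3 below it. Dnmt3l in hairpin B minus scrambled was 2.46 at day 6 and 3.05 at day 9, with hairpin A at 0.29 and 0.07. Tet1 was 1.72 and 2.21 in hairpin B, and 0.32 and 0.47 in hairpin A. Tet2 was 1.18 and 1.04 in hairpin B, and -0.36 and -0.00 in hairpin A, and Tet3 was -1.14 and -1.68 in hairpin B, and -0.34 and 0.17 in hairpin A. Dnmt1 in hairpin B minus scrambled was 0.35 and 0.46 at days 6 and 9, Uhrf1 0.36 and 0.61, and Tdg -0.43 and -0.31. In hairpin A these 3 genes were within -0.14 and 0.11 of scrambled on both days. The Tet1 difference between the hairpins and scrambled at day 9, averaged over both hairpins, was 1.34 ± 0.79 (adjusted p = 0.873, limma).

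The late hairpin B libraries also kept the pluripotency markers, which summed to 2223 FPKM at day 6 in hairpin B, against 862 FPKM in hairpin A and 659 FPKM in scrambled. The cardiomyocyte markers at day 9 summed to 17.2 FPKM in hairpin B, 83.8 FPKM in hairpin A and 485 FPKM in scrambled. The part of these markers' cells in the member differences was not tested. The profiles most like Dnmt3l were those of Nfe2l2, Mageb16 and Fgf4 (r from 0.983 to 0.980), and the ones most like Tet1 were Rnf125, Slc29a1 and Ttc39b (r from 0.983 to 0.979). Tet3 was most like Crb2, 4933433P14Rik and Mfap3 (r from 0.989 to 0.986). Among the 36 pairs of members r ran from -0.922 for Tet1 and Tet3 to 0.930 for Dnmt1 and Uhrf1, and Dnmt3l with Tet1 had r = 0.896.

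**Figure D4:**
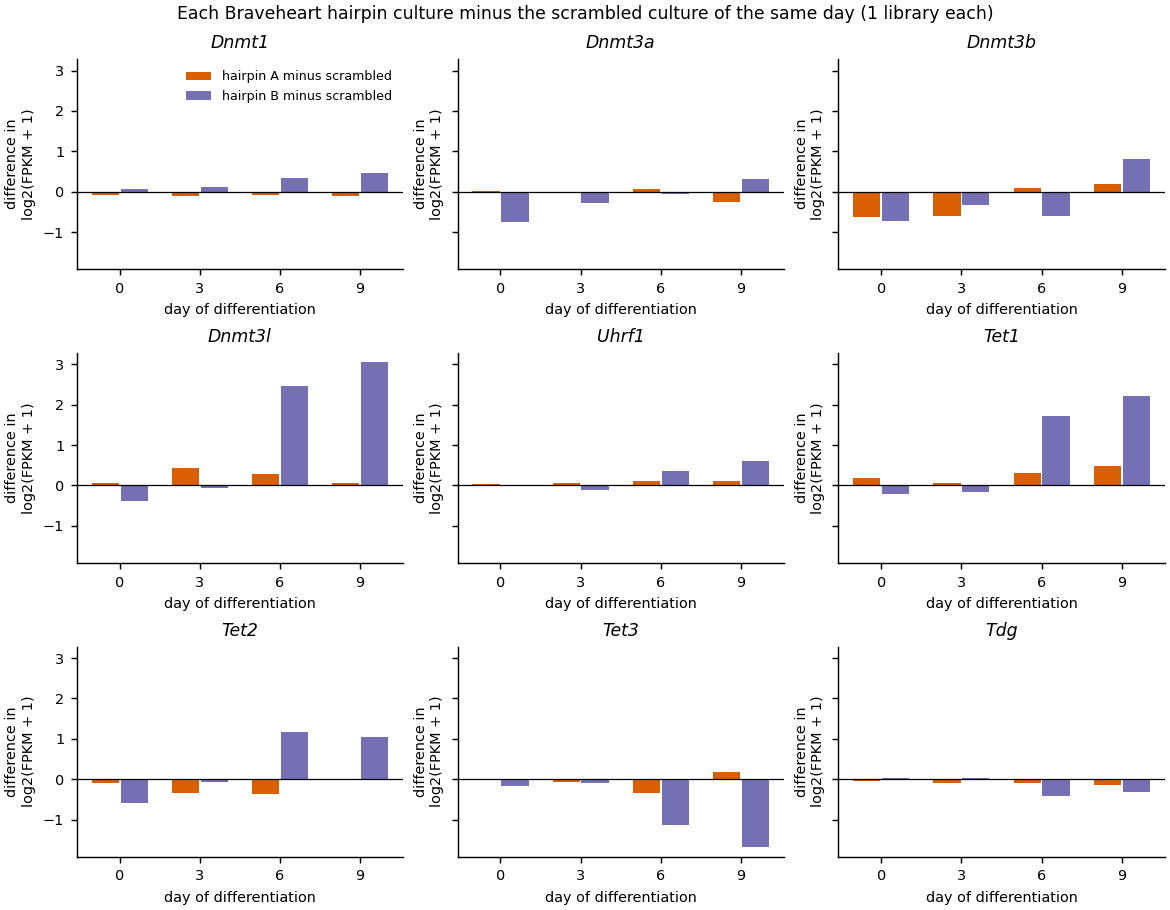
Difference in log2(FPKM + 1) between each Braveheart hairpin culture and the scrambled culture of the same day (hairpin A orange, hairpin B purple), with 1 library on each side and so no error bar. Hairpin A stays within -0.63 and 0.47 for every gene and day, while hairpin B reaches 3.05 for Dnmt3l and -1.68 for Tet3 at day 9.

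The levels of the members differed between the kinds of cell line. The miPS and mESC libraries were the highest in Dnmt3a, Dnmt3b, Dnmt3l and Tet1, and the MEF library was the lowest in Dnmt1, Uhrf1, Tet1, Tet2, Dnmt3b and Tdg. The partial lines had Dnmt1 and Uhrf1 levels above those of every mESC library, though neither difference passed the threshold. They had Dnmt3l at the detection floor and little Dnmt3b. The deposited table gave expected counts, tested with edgeR, and TPM, which is per length and is used here for levels. In these tests mESC is the mean of the E14 and v6.5 groups. The spread came from the E14, v6.5 and partial pairs alone. MEF and miPS are lone libraries that were assumed to vary like those pairs, so the standard errors and p-values below hold no measured MEF or miPS variation.

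Dnmt3l had 260.3 TPM in miPS, 79.8 and 82.9 TPM in E14, 62.9 and 63.0 TPM in v6.5, 0.684 and 0.814 TPM in the partial lines and 1.00 TPM in MEF. The expected counts behind these were 2724 in miPS, 1472 and 2066 in E14, 689 and 977 in v6.5, 0 and 1 in the partial lines and 3 in MEF. The partial and MEF values were therefore at the floor, since the deposited TPM is above 0 even for genes with no counts. The ratio of Dnmt3l in mESC to MEF, relative to library totals, was 250 (95% exact conditional interval 85.4 to 1211, counting error only), and in mESC to partial lines 1290 (231 to 50961). Partial lines and MEF were not distinguishable for Dnmt3l at this depth (ratio 0.194, interval 0.00369 to 2.41).

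Dnmt3l was also the member that set miPS farthest from mESC, at 1.99 ± 0.33 in log2. With edgeR that difference did not pass (adjusted p = 0.210), and no member did, where 0.0298% of genes passed (7.95% unadjusted). With DESeq2 it passed (1.97, adjusted p = 0.00115), as it did with edgeR without the v6.5 libraries (1.92, adjusted p = 0.0368) or without v6.5 replicate 1 alone (adjusted p = 0.0361). Over all its alternatives the difference ran from 1.85 to 2.07, and the adjusted p from 0.00115 to 0.9999. The miPS line is 1 library, so its own spread was not measured. Of the 9 members 2 passed an unadjusted p under 0.05 in that comparison.

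Dnmt3b had 126 TPM in miPS, 171 and 176 TPM in E14, 122 and 296 TPM in v6.5, 3.29 and 7.05 TPM in the partial lines and 2.70 TPM in MEF. It was higher in mESC than in MEF by 6.12 ± 0.80 (adjusted p = 0.00468, edgeR) and higher than in partial lines by 5.24 ± 0.54 (adjusted p = 0.00241). Dnmt3a had 73.1 TPM in miPS, 80.2 and 71.1 TPM in E14, 47.1 and 108 TPM in v6.5, 19.3 and 24.9 TPM in the partial lines and 21.9 TPM in MEF. It was higher in mESC than in MEF by 1.49 ± 0.44 (adjusted p = 0.0495), a call lost without either E14 or either partial library, and higher than in partial lines by 2.31 ± 0.35 (adjusted p = 0.00642). Dnmt3a thus made up 82.9% and 76.0% of the Dnmt3 sum in the partial lines and 85.6% in MEF, and Dnmt3l 56.6% of it in miPS.

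Tet1 had 105 TPM in miPS, 122 and 123 TPM in E14, 26.2 and 57.4 TPM in v6.5, 15.9 and 8.25 TPM in the partial lines and 1.27 TPM in MEF. The order of levels was E14, miPS, v6.5, partial lines and MEF, without overlap between groups, and miPS and E14 lay close together (E14 against v6.5 and miPS against mESC did not pass for Tet1). The MEF value rested on 8 expected counts, and the ratio of the counts summed over mESC to MEF was 401 (95% exact conditional interval 203 to 928), a sum in which the deeper E14 libraries weigh most. Tet1 was higher in mESC than in MEF by 7.95 ± 0.91 in the edgeR fit, 247-fold (adjusted p = 0.00338), higher in mESC than in partial lines by 2.76 ± 0.47 (adjusted p = 0.00932) and higher in partial lines than in MEF by 5.19 ± 0.83 (adjusted p = 0.0128).

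Tet2 had 48.7 TPM in miPS, 25.7 and 26.4 TPM in E14, 21.1 and 12.7 TPM in v6.5, 63.3 and 35.0 TPM in the partial lines and 4.41 TPM in MEF. It made up 66.8% and 56.0% of the Tet sum in the partial lines. Its level was lower in mESC than in partial lines (-1.18 ± 0.28, adjusted p = 0.0239, edgeR; -0.79 and no longer past the threshold without the v6.5 libraries) higher in mESC than in MEF by 2.15 ± 0.43 (adjusted p = 0.0166) and higher in partial lines than in MEF by 3.33 ± 0.49 (adjusted p = 0.00923). Tet3 had 4.06 TPM in miPS, 2.73 and 3.01 TPM in E14, 3.08 and 4.86 TPM in v6.5, 15.5 and 19.2 TPM in the partial lines and 11.1 TPM in MEF. Tet3 was lower in mESC than in MEF (-2.18 ± 0.33, adjusted p = 0.00704) and lower than in partial lines (-2.48 ± 0.28, adjusted p = 0.00273). It was the only member called lower in mESC than in MEF.

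**Figure D5:**
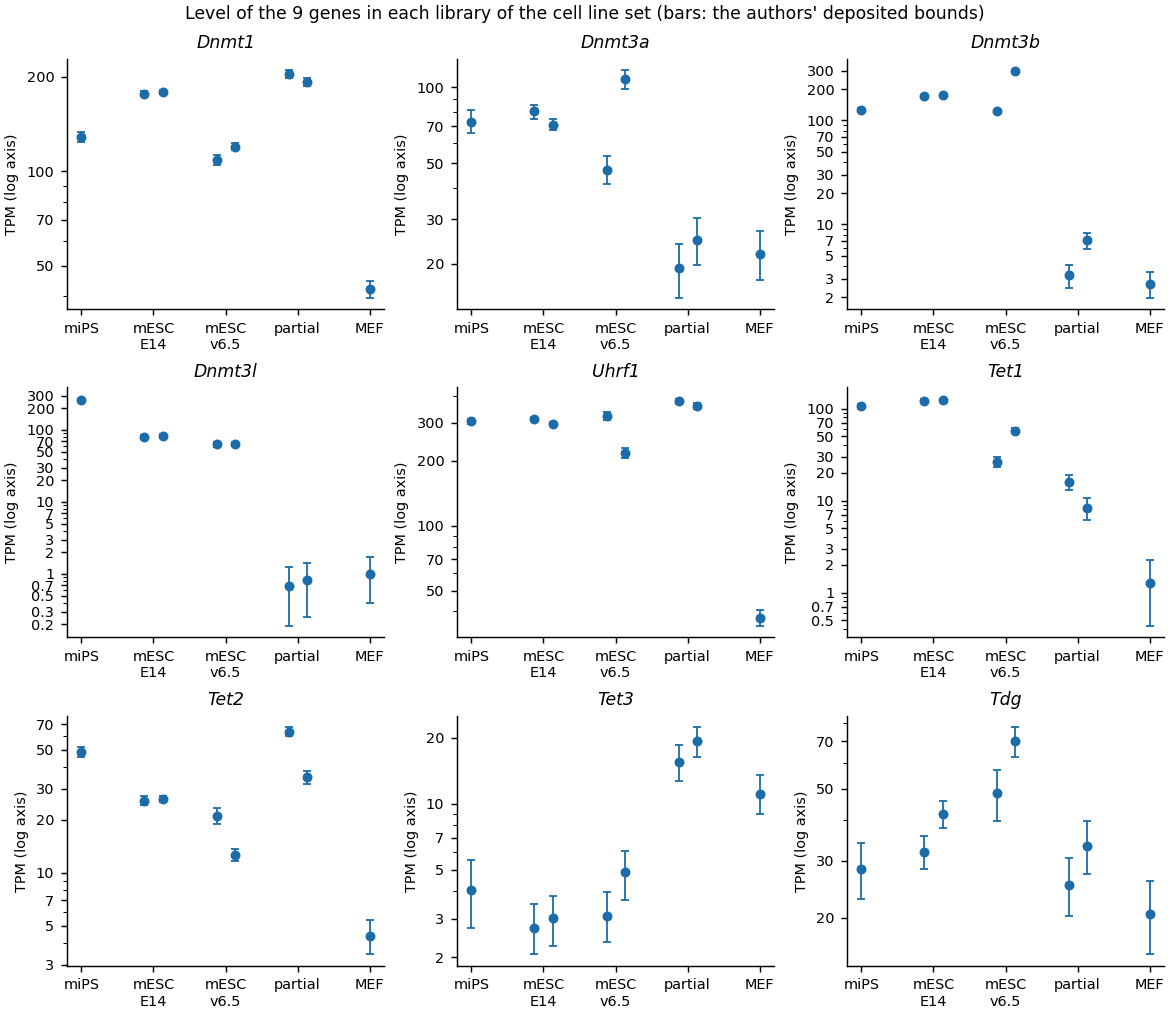
Level in TPM (log axis) of each of the 9 genes in each library of the cell line set, with 1 point per library; bars span the lower and upper bounds that the authors deposited for each value, and are not replicate error. Dnmt3l is at 260.3 TPM in miPS and at most 1.00 TPM in the partial and MEF libraries, while Dnmt1 and Uhrf1 are low in MEF only.

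The maintenance pair set MEF apart from all other lines. Dnmt1 had 129 TPM in miPS, 177 and 179 TPM in E14, 109 and 120 TPM in v6.5, 204 and 192 TPM in the partial lines and 42.2 TPM in MEF. Uhrf1 had 305 TPM in miPS, 314 and 296 TPM in E14, 322 and 218 TPM in v6.5, 378 and 359 TPM in the partial lines and 37.5 TPM in MEF. In mESC against MEF, Dnmt1 was higher by 1.47 ± 0.28 (adjusted p = 0.0143, edgeR) and Uhrf1 by 2.64 ± 0.49 (adjusted p = 0.0130). In partial lines against MEF the values were 2.06 ± 0.31 (adjusted p = 0.0101) and 3.15 ± 0.53 (adjusted p = 0.0146). Against partial lines, mESC differed by -0.59 ± 0.19 for Dnmt1 (adjusted p = 0.0635, edgeR) and -0.51 ± 0.31 for Uhrf1 (adjusted p = 0.250), and neither passed. The proliferation markers, of which all 10 were called higher in mESC than in MEF, summed to between 2157 and 3452 TPM in the other lines and to 473 TPM in MEF, and their part in the difference was not tested.

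Tdg varied least among the lines, with 28.3 TPM in miPS, 32.0 and 41.8 TPM in E14, 48.5 and 70.1 TPM in v6.5, 25.2 and 33.4 TPM in the partial lines and 20.5 TPM in MEF. Its mESC against MEF difference was 0.82 (adjusted p = 0.114, edgeR). E14 against v6.5 gave no called member with edgeR, where 0.489% of genes passed (3 of 9 members at an unadjusted p under 0.05, and 18.7% of genes). Tdg was at -1.14 ± 0.28 there (adjusted p = 0.122, and 0.0280 with DESeq2), and Tet1 missed the threshold as well (adjusted p = 0.225).

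By comparison, 8 of 9 members passed in mESC against MEF, where 28.6% of genes did, and 6 of 9 in mESC against partial lines, where 29.7% did. In partial lines against MEF 4 of 9 passed, where 13.8% of genes did, and in miPS against partial lines 5 of 9, where 9.88% did. Those 5 were Dnmt3a (2.21, adjusted p = 0.0274, edgeR), Dnmt3b (4.79, adjusted p = 0.00853), Dnmt3l, Tet1 (3.22, adjusted p = 0.0225) and Tet3 (-2.31, adjusted p = 0.0309). These comparisons share libraries and are not independent of each other. The median difference over all genes was 0.19 in mESC against MEF, and 0.55 when library totals replaced the TMM scaling. Without the v6.5 libraries, a choice made after seeing the data, 8 members passed in mESC against MEF, 6 in mESC against partial lines, 5 in partial lines against MEF, 1 in miPS against mESC and 5 in miPS against partial lines, where 55%, 53.4%, 29.4%, 3.3% and 22.9% of genes did. Of the calls named above, those of Dnmt1 and Tet2 in mESC against MEF and of Dnmt1 in partial lines against MEF were lost without either E14 library. Without partial 1, the calls of Dnmt3a and Tet2 in mESC against partial lines and of Uhrf1 in partial lines against MEF were lost, and without partial 2 that of Tet1 in mESC against partial lines. The Tet2 call in mESC against partial lines was also lost without either E14 library. Leaving out either E14 library gave 5 members in mESC against MEF, where 9.89% and 9.55% of genes passed, and 2 in miPS against partial lines, where 2.46% and 2.47% did. Leaving out partial 1 or partial 2 gave 3 or 2 in miPS against partial lines, where 3.84% and 3.71% did.

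Other genes of the pathway were taken from 8 lists of 49 genes, of which 48 were tested in the time course and 47 in the cell lines. At day 9 against day 0, 5 rose and 5 fell with a list median of 0.04, beside 10.3% of all genes called higher, 6.22% called lower and an overall median of 0.10. Ogt, the glycosyltransferase that binds Tet proteins, rose by 1.65 (adjusted p = 0.00456, limma), and Cxxc4, a CpG-binding regulator of Tet2, rose by 1.97 (adjusted p = 0.0444). Idh2, which makes the α-ketoglutarate that Tet enzymes use, rose by 0.44, the glycosylase Smug1 by 0.79 and the methyl-CpG binding protein Mbd2 by 0.60. Trim28, the corepressor that protects imprints, fell by 1.24, Gadd45g by 1.22, the methyl-CpG reader Zbtb38 by 1.00, the replicative ligase Lig1 by 0.62 and Ahcy, which clears S-adenosylhomocysteine, by 0.43. Without the hairpin B libraries of days 6 and 9 the counts were 16 higher and 15 lower of 48, where 60.1% of all genes passed. Of the 9 methyl-CpG readers 7 were then higher and 2 lower.

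At day 3 against day 0, Cxxc5 rose by 0.63 (adjusted p = 0.0169, limma), and Gadd45g fell by 1.36, Mtr by 0.76 and Idh2 by 0.74, 1 gene up and 3 down of 48, beside 6.04% of all genes called. Without the 2 late hairpin B libraries 7 rose and 10 fell of 48, beside 27.2% of all genes, among them Prdm14, a repressor of Dnmt3b in mouse stem cells, which fell by 1.96 (adjusted p = 0.000364), and the imprint protector Zfp57, which fell by 1.56 (adjusted p = 0.000674). At day 6 against day 3, 3 rose (Ogt by 1.21, Smug1 by 0.84 and Idh2 by 0.58) and none fell, beside 5.76% of all genes. At day 9 against day 6 none passed with limma, beside 0.0425% of all genes. There 9 of 48 had an unadjusted p under 0.05, beside 14.1% of all genes. No gene of the lists passed in any hairpin comparison with limma, beside 0.0213% to 0.0638% of all genes. At an unadjusted p under 0.05, 0 passed at each day, beside 0.262% to 1.41% of all genes. In the mean over days 1 did, beside 1.22% of all genes.

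In mESC against MEF 18 genes of the lists were higher and 4 lower, of 47 tested, beside 28.6% of all genes called, with a list median of 0.69 beside 0.19 over all genes. The higher ones held 5 of 7 maintenance partners, led by the remodeller Hells (5.15), Cdca7 (3.26) and Lig1 (2.68), and 5 of 6 regulators of de novo methylation and protection, among them Ctcf (1.90). The repair genes Parp1 (3.29) and Lig3 (1.04) were higher as well. The lower ones were Gadd45g (-3.12) and the methyl-CpG readers Zbtb4 (-2.71), Mbd2 (-1.87) and Mbd1 (-1.55). These 3 readers were also lower in mESC than in partial lines (Zbtb4 -2.15, Mbd2 -1.92, Mbd1 -1.18), where 9 list genes were higher and 8 lower, beside 29.7% of all genes called. Partial lines against MEF gave 9 higher and 3 lower, beside 13.8% of all genes called, led by Ahcy (6.88), the deaminase Apobec3 (4.79) and Apobec1 (3.27), with Gadd45g (-4.20) lower. Ahcy also separated E14 from v6.5 (-6.72, adjusted p = 0.0198, edgeR), the only gene of the lists called there, beside 0.489% of all genes. Near copies of Ahcy elsewhere in the genome can split its reads, and their part in these differences was not tested. None of the list genes was called in miPS against mESC with edgeR, beside 0.0298% of all genes (2 at an unadjusted p under 0.05, beside 7.95% of all genes). Without the v6.5 libraries the counts were 23 higher and 6 lower in mESC against MEF, 16 and 9 in mESC against partial lines, and 14 and 4 in partial lines against MEF, where 55%, 53.4% and 29.4% of all genes passed.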

How the data were processed

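RNA sequencing values were read from 2 deposited tables. For the time course, the authors made FPKM per gene by Cufflinks 1.3.0 after alignment to mm9 (TopHat 1.14 with Bowtie 0.12.7), per the submitters' processing notes. For the cell lines, the authors made expected counts and TPM by RSEM after TopHat 1.3, also on mm9, per the same notes. The authors also deposited lower and upper bounds of each TPM, a signal used only in a figure. Strand use and annotation version are not given in the sources used here. Of 108 member FPKM values 107 had the status "ok" and 1 had "fail".

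The time course was tested with limma 3.58.1 in R 4.3.3 (trended eBayes). Values were log2(FPKM + 1), which understates the change of low genes, for the 14108 genes reaching 1 FPKM in 2 or more libraries. The days fit (7 residual degrees of freedom) had hairpin against Braveheart or scrambled as a covariate, and the hairpin fit (4) had 8 groups. Expected counts, rounded to whole numbers, were tested with edgeR 4.0.16 (quasi-likelihood, TMM scaling, 3 residual degrees of freedom) for the 16773 genes reaching 1 CPM in 2 or more libraries. The plan had assumed RPKM in both tables and limma throughout. P-values were two-sided and adjusted by Benjamini-Hochberg over all genes tested, with a threshold of 0.05. DESeq2 1.42.0 was an alternative. The tests were also run on simulated data with independent libraries and no culture that departs from the others. Those simulations do not check the tests for the links within cultures or the late hairpin B split of these data.

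The naming rule took all 9 members, the 3 genes most like each and up to 3 called genes per pathway list with the largest differences. The members and lists were chosen with earlier results of these data known.

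Expected counts totalled 7536503 to 23662593 per cell line library. The time course table holds no counts, and the smallest FPKM steps of single-exon genes implied between 7891400 and 12767900 reads, an estimate from few genes. Intervals and floors cover counting error only. Culture pairs the time course libraries, since each culture follows 1 line through the days. Deviations from the day means correlated between -0.0910 and 0.642 within cultures, and at 0.339 in hairpin A, 0.642 in hairpin B and 0.447 in scrambled between days 6 and 9. Reads could be split between Dnmt3a, Dnmt3b, Dnmt3l or Tdg and their annotated pseudogenes.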

Additional observations from a re-analysis of the deposited data

Results flagged for a closer look

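Dnmt3b lay on opposite sides of scrambled at 2 days. It was found by searching the 9 members for such a switch between days, and the share of all genes that meet this rule was not counted. Both hairpin libraries were above scrambled at day 9, by 0.19 in hairpin A and 0.81 in hairpin B on the log2(FPKM + 1) scale, and both were below it at day 3, by -0.59 in hairpin A and -0.32 in hairpin B. The mean effect was 0.50 at day 9 and -0.46 at day 3, a difference of 0.958 that was not tested. At day 6, between them, the hairpins disagreed, with hairpin A at 0.08 and hairpin B at -0.59. Both hairpins were also below scrambled at day 0, by log2 differences of -0.63 (hairpin A) and -0.74 (hairpin B), and the tested change of the effect between day 0 and day 9 was 1.18 ± 0.51 (unadjusted p = 0.0557, adjusted p = 0.9995, limma). The scrambled day 3 value carries the authors' failed quantification status.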

How the results depend on the processing

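Over all members and comparisons the sign changed in 49 of 2061 alternative values, none past the threshold in either fit, where the value reported was at most 0.82 in size. Of the 1024 of these values that belong to members past the threshold in some fit or at least 2-fold apart as reported, 869 kept their direction and side of the threshold, 80 lost the threshold, 71 gained it and 4 reversed. Of 229 counts of members, 179 stayed within 1.5 times the count reported. Without the hairpin B culture 6, 8, 7 and 8 members passed at day 3 against 0, day 6 against 3, day 9 against 6 and day 9 against 0, where 35.9%, 50.5%, 26.8% and 65.1% of genes did, and without its libraries of days 6 and 9 alone 5, 7, 4 and 8. Without a filter on low FPKM 0 passed at day 6 against 3 and 2 at day 9 against 0. With culture as a block 2 passed at day 6 against 3 (Dnmt3a gained, adjusted p = 0.0478, limma) and 1 at day 9 against 6, and Dnmt1 was gained at day 9 against 0. The block changed no other call. In miPS against mESC 1 member passed with DESeq2, without a filter and without the v6.5 libraries, and in E14 against v6.5 1 passed with DESeq2. The replicate numbers of E14 and v6.5 share only a number (r = 0.294 between deviations), and that block left the counts at 8, 6, 4, 0, 5 and 0. Leaving out 1 library gave 1 to 2 members at day 3 against 0, 0 to 4 at day 6 against 3, 0 to 3 at day 9 against 6 and 0 to 8 at day 9 against 0, each highest without hairpin B at day 9 except the first. In the cell lines it gave 5 to 9 in mESC against MEF, 4 to 8 in mESC against partial lines, 3 to 5 in partial lines against MEF, 0 to 1 in miPS against mESC, 2 to 5 in miPS against partial lines and 0 to 2 in E14 against v6.5. It gave 0 in every hairpin comparison. A library left alone in its group was assumed to vary like the others, and a day's hairpin comparison could not be fitted without its scrambled library. The share of all genes called also moved with the library left out, as given above for day 9 against day 0. Counts of members stated here without that share are therefore not a result about the members. The 4 reversals were for Dnmt3l at day 3 against 0 (-0.60 to 0.0771 over omissions), Tet1 at day 6 against 3 (-0.73 to 0.0120) and at day 9 against 6 (-0.99 to 0.0577), and Dnmt3a in partial lines against MEF (0.000931 in limma on log2(TPM + 1)). None of these passed in the fits reported. Quantile normalization moved the share of higher calls over all genes at day 9 against 0 to 46.5%, against 62.4%, and library totals moved it to 61.0% in mESC against MEF, against 46.2%, and to 53.1% in partial lines against MEF, against 35.8%. The cause of these changes was not tested.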
